A study of Mus musculus with 24 samples.

Results

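The mitochondrial ribosomal protein genes are nuclear genes for the protein subunits of the ribosome inside mitochondria. They were taken as every probe set whose RefSeq accession maps to a symbol beginning with Mrpl (large subunit) or Mrps (small subunit) and a digit. The rule found 74 probe sets of 26180, which stand for 73 genes of 14348 with a symbol: 48 of the large subunit and 25 of the small. Only Mrpl1 had more than 1 probe set. The rule used names alone and no measured value. Mrpl44, Mrps10, Mrps18b, Mrps33 and Mrps36 were not analysed here.

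The arrays measured total RNA of the median and left liver lobes of mice. Adult mice were 12 to 14 months old and young mice 4 to 5 weeks old. Within each age, mice had 30, 60 or 90 min of partial hepatic ischemia, in which blood flow to part of the liver is stopped, or a sham operation, with 3 arrays in each of the 8 groups and 24 arrays in all. The titles write the times as 30/0, 60/0 and 90/0, and what follows the slash, the strain and the sex are not given in the sources used here. Each deposited value is a ratio whose denominator is the sham mean at that age (3 arrays), so a gene has no level of its own, levels cannot be compared between genes, and adult sham cannot be set against young sham. For the same reason the tissue could not be checked by the level of its defining markers, nor whether a probe set, of a member or of any other gene, was above background.

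The mitochondrial ribosome makes the few proteins that mitochondrial DNA encodes, all of them core subunits of the respiratory chain complexes and the ATP synthase. Its own proteins are encoded in the nucleus, made in the cytosol and imported, and are assembled on ribosomal RNA transcribed inside the organelle. Some have counterparts in bacterial ribosomes and others are found only in mitochondria. In liver, hepatocytes are rich in mitochondria and lose respiration when oxygen is withheld.

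In adult liver, 23 of the 73 genes fell after 60 min of ischemia and 15 fell after 90 min, and none rose (limma, Benjamini-Hochberg adjusted p under 0.05 over all 14348 genes). Most of the others lay on the same side: 70 of 73 fold changes were below 0 at 60 min and 71 at 90 min. Among all genes 58.7% and 56.5% were below 0. The median change was -0.36 (log2) at 60 min and -0.34 at 90 min. In young liver no member passed the test at any time, and neither did any after 30 min in adult liver. Both subunits shared the shift, and their medians differed by less than 0.1 on the log2 scale in every comparison with sham. In whole liver, fewer cells of a type and less RNA per cell cannot be told apart.

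Set against all genes, the members called at 60 min in adult liver were 31.5% of the list, where 9.76% of all genes fell (11.9% passed in either direction). The median of all genes was -0.05. At an unadjusted p under 0.05 there were 57 members, all below 0, against 33.3% of all genes in either direction. In 54 members, or 74.0%, all 3 ischemia arrays lay below all 3 sham arrays, against 25.9% of all genes. After 90 min 20.5% of the members and 6.27% of all genes fell (7.44% passed in either direction), and the median of all genes was -0.04. At that time 43 members had an unadjusted p under 0.05, against 28.6% of all genes. The arrays did not overlap and lay below sham in 50 members, or 68.5%, against 26.4% of all genes. The 60 and 90 min groups are compared with the same 3 sham arrays, so the results at both times are not independent.

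The adult counts depended on single arrays. At 60 min, 25 members passed without ischemia replicate 1, 3 without sham replicate 2, and none without sham replicate 1, sham replicate 3 or ischemia replicate 2 or 3. At 90 min the count was 5, 7 and 0 without sham replicate 1, 2 and 3, and 0, 1 and 3 without ischemia replicate 1, 2 and 3. The numbers of all genes that passed in these fits are not given here. A loss of calls in the members therefore cannot be told from a general one. In each of these fits all 23 and all 15 members kept a fold change below 0 and an unadjusted p under 0.05. They had been picked by a stricter threshold on these same arrays, and each fit leaves out only 1 array. This result was therefore largely set in advance and is no separate support. Quantile normalization of the arrays left no member past the adjusted threshold at either time. The medians of the members were then -0.18 and -0.17, with 68 of 73 below 0 at both. Among all genes 0 passed at 60 min, and at 90 min 3 fell and 0 rose. The loss of calls was therefore not particular to the members. At an unadjusted p under 0.05 there were 10 members and 1424 of all genes at 60 min, beside 57 and 4772 as deposited. At 90 min there were 14 and 1478, beside 43 and 4100. The median of all genes was 0.02 at both times. Centring each array on its median moved the split of all genes to 477 that rose and 847 that fell at 60 min, beside 309 and 1401 as deposited, and to 253 and 703 at 90 min, beside 168 and 900.

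The medians over the 73 genes show the shift array by array. The 3 adult arrays read -0.08, -0.04 and 0.10 after sham, -0.30, -0.12 and 0.05 after 30 min, -0.49, -0.32 and -0.29 after 60 min and -0.45, -0.30 and -0.25 after 90 min, each set in rising order. Every adult array at 60 and 90 min therefore lay below every adult sham array, whereas 1 of the 3 arrays at 30 min, replicate 3, lay among the sham arrays. The young arrays read -0.19, -0.05 and 0.19 after sham, -0.31, -0.17 and -0.05 after 30 min, -0.27, -0.23 and -0.06 after 60 min and -0.30, -0.01 and 0.04 after 90 min. The young groups overlapped with sham at every time, and the range of the young sham arrays was wider than that of the adult ones. The array titles carry codes whose meaning is not explained. Adult ischemia and sham arrays with the same first part of that code gave median differences over the members of -0.22, -0.22 and 0.08 at 30 min, -0.22, -0.40 and -0.50 at 60 min, and -0.40, -0.20 and -0.40 at 90 min. Of those at 90 min the last 2 use the same sham array, replicate 3, and sham replicate 1 has no partner.

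**Figure D1:**
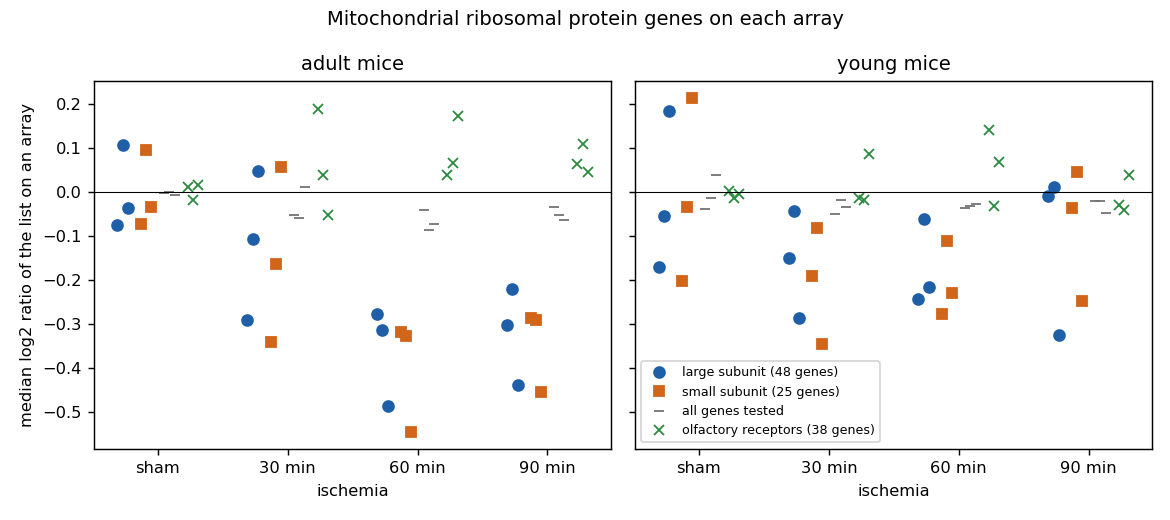
Median log2 ratio (vertical axis) of the large subunit genes (circles), small subunit genes (squares), all genes tested (dashes) and olfactory receptor genes (crosses) on each array, by minutes of ischemia, for adult mice on the left and young mice on the right. Each marker is 1 array. In adult mice every circle and square at 60 and 90 min lies below the sham markers, and in young mice the groups overlap.

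The largest single change at 60 min was in Mrpl18, the counterpart of the bacterial protein L18, which binds 5S ribosomal RNA in bacteria. Its ratio was 0.645, 0.636 and 0.492 on the adult arrays after 60 min, against 0.959, 1.03 and 1.01 on the adult sham arrays. After 90 min it was 0.668, 0.619 and 0.535. The groups did not overlap at either time, and Mrpl18 fell by 0.77 ± 0.17 at 60 min (log2, SE, limma adjusted p = 0.0294) and by 0.72 ± 0.17 at 90 min (adjusted p = 0.0255). After 30 min the adult arrays read 0.601, 0.780 and 1.03 and overlapped with sham. In young liver Mrpl18 read 1.13, 1.24 and 0.894 after 90 min, against 0.809, 0.982 and 1.21 after sham, so those groups overlapped too.

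After 90 min the largest fall was in Mrps12, the counterpart of bacterial S12, a protein of the decoding centre that bears on the accuracy of translation. The adult arrays read 0.578, 0.617 and 0.532 after 90 min, against 0.932, 1.08 and 0.988 after sham, with no overlap. Mrps12 fell by 0.80 ± 0.15 (log2, SE, limma adjusted p = 0.0122) at 90 min and by 0.51 ± 0.15 at 60 min (adjusted p = 0.0361). The young arrays after 90 min read 0.794, 0.804 and 0.657, all below the young sham arrays at 0.834, 0.961 and 1.20, but the change did not pass the test. Mrps12 was thus below the sham arrays of its age on all 6 arrays of 90 min ischemia, adult and young.

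Mrpl3, the counterpart of L3, a protein that reaches close to the peptidyl transferase centre, read 0.711, 0.685 and 0.601 in adult liver after 60 min, against 0.949, 1.00 and 1.05 after sham. It read 0.675, 0.638 and 0.599 after 90 min. All 6 ischemia arrays lay below the sham arrays, and Mrpl3 fell by 0.59 ± 0.15 at 60 min (limma adjusted p = 0.0300) and by 0.65 ± 0.15 at 90 min (adjusted p = 0.0211). Mrpl53, a large subunit protein with no bacterial counterpart, read 0.716, 0.680 and 0.603 after 60 min in adult liver, against 0.939, 1.10 and 0.964 after sham. It read 0.673, 0.716 and 0.603 after 90 min. Those groups did not overlap either, and Mrpl53 fell by 0.59 at both times (SE 0.14, limma adjusted p = 0.0294 at 60 min and 0.0225 at 90 min).

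Of the small subunit, Mrps31 and Mrps22, both without a bacterial counterpart, and Mrps18c, 1 of several mammalian relatives of bacterial S18, fell at both times. Mrps31 read 0.628, 0.691 and 0.550 in adult liver after 60 min, against 1.04, 0.982 and 0.981 after sham, a fall of 0.69 ± 0.16 (limma adjusted p = 0.0294). Mrps18c read 0.701, 0.718 and 0.501 after 60 min, against 0.946, 1.09 and 0.962 after sham, a fall of 0.66 ± 0.17 (adjusted p = 0.0310). Mrps22, in which inherited defects impair several respiratory chain complexes in humans, read 0.662, 0.708 and 0.578 after 60 min, against 0.892, 1.14 and 0.966 after sham. It fell by 0.62 ± 0.16 (limma adjusted p = 0.0306). In none of these 3 genes did the adult 60 min and sham arrays overlap. At 90 min the falls were 0.58 for Mrps31, 0.65 for Mrps18c and 0.55 for Mrps22 (limma adjusted p = 0.0398, 0.0321 and 0.0435).

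**Figure D2:**
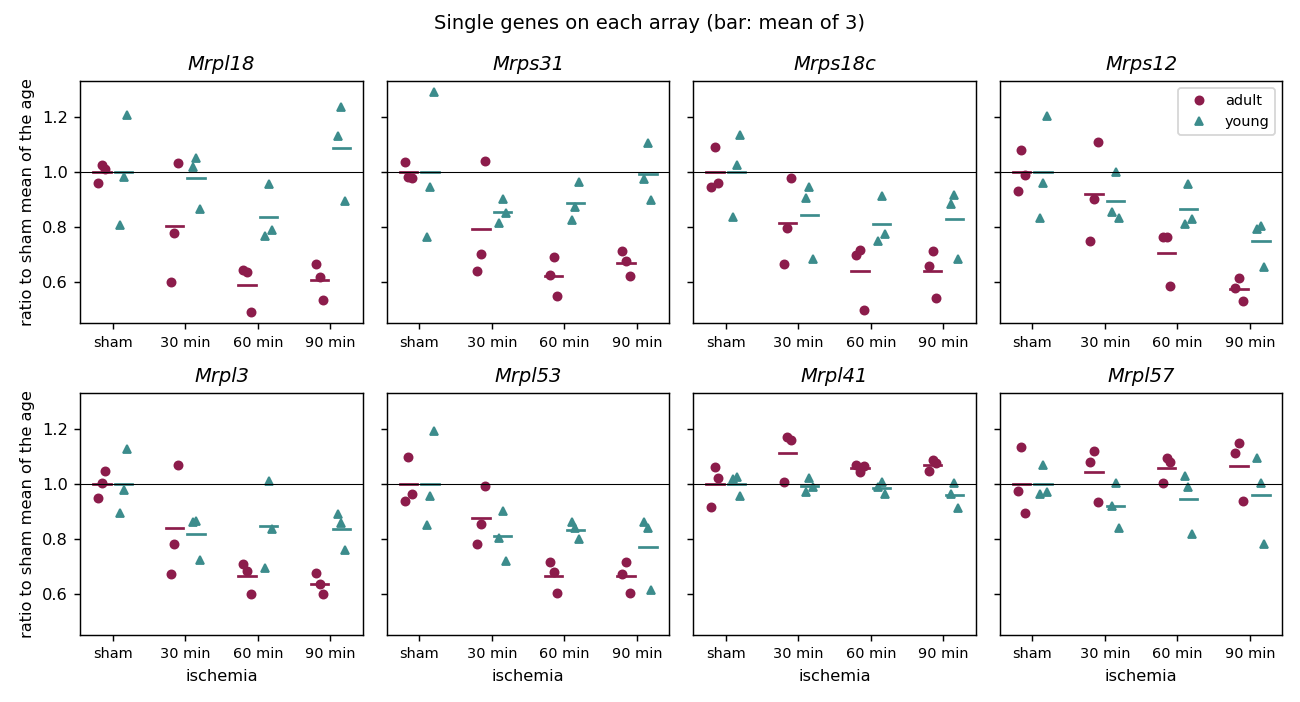
Ratio to the sham mean of the same age (vertical axis) of 8 mitochondrial ribosomal protein genes on each array, by minutes of ischemia; circles are adult mice, triangles young mice, bars the mean of 3 arrays. For the first 6 genes every adult array at 60 and 90 min lies below the adult sham arrays, while Mrpl41 and Mrpl57 overlap with sham.

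In adult liver 12 members passed at both times, 11 at 60 min alone and 3 at 90 min alone, and 47 at neither. Both times use the same sham arrays. The share of all genes that passed at both is not given here, so the 12 cannot be set against a background. The 12 were Mrpl3, Mrpl18, Mrpl21, Mrpl24, Mrpl43, Mrpl53, Mrps12, Mrps18c, Mrps22, Mrps23, Mrps30 and Mrps31. Those past the threshold at 60 min alone were Mrpl1, Mrpl16, Mrpl22, Mrpl28, Mrpl36, Mrpl37, Mrpl45, Mrps2, Mrps7, Mrps14 and Mrps34, and at 90 min alone Mrpl9, Mrpl35 and Mrpl50. A call at 1 time and not at the other is no test of a difference between the times: direct comparisons of 90 min with 60 min in adult liver passed for no member and for 0.0% of all genes (limma), with 1 member and 3.19% of all genes at an unadjusted p under 0.05. Mrpl45, which in humans is reported to link the ribosome to the inner membrane, showed the largest gap between the times: it read 0.704, 0.765 and 0.648 after 60 min, and 0.914, 0.892 and 0.870 after 90 min. Those arrays do not overlap, and the difference of 0.34 ± 0.13 (90 min minus 60 min) did not pass (limma adjusted p = 0.999).

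The called members ranged between -0.77 and -0.27 at 60 min and between -0.80 and -0.40 at 90 min (log2), with limma adjusted p between 0.0266 and 0.0446 at 60 min and between 0.0122 and 0.0453 at 90 min. The lowest adjusted p at 60 min belonged to Mrpl21, the counterpart of bacterial L21, with 0.810, 0.709 and 0.677 after 60 min and 0.922, 1.08 and 1.00 after sham, a change of -0.45 (adjusted p = 0.0266). Mrpl50, which has no bacterial counterpart, read 0.623, 0.634 and 0.704 after 90 min, against 0.838, 0.956 and 1.21 after sham. Mrpl50 fell by 0.60 at 90 min (limma adjusted p = 0.0381) and its groups did not overlap. Some members with larger changes did not pass, with a larger SE: Mrpl13 had -0.59 ± 0.21 at 60 min (adjusted p = 0.0597) and Mrpl42 -0.65 ± 0.21 at 90 min (adjusted p = 0.0609).

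A few members had adult values close to those of sham. Mrpl41, a large subunit protein of mitochondria alone, read 1.07, 1.04 and 1.07 in adult liver after 60 min and 1.05, 1.09 and 1.08 after 90 min, against 0.917, 1.06 and 1.02 after sham. Mrpl57 read 1.00, 1.09 and 1.08 after 60 min, against 0.973, 1.13 and 0.894 after sham, with full overlap. The fitted change was 0.09 for both genes at 60 min, and 0.10 for Mrpl41 and 0.09 for Mrpl57 at 90 min (limma adjusted p = 0.429 and 0.654 at 60 min). Mrpl51 had -0.03 and Mrpl54 0.06 at 60 min, and -0.05 and -0.12 at 90 min. All 4 belong to the large subunit and have no bacterial counterpart. The smallest change of any small subunit gene was that of Mrps21, the counterpart of bacterial S21, with -0.13 at 60 min and -0.06 at 90 min.

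**Figure D3:**
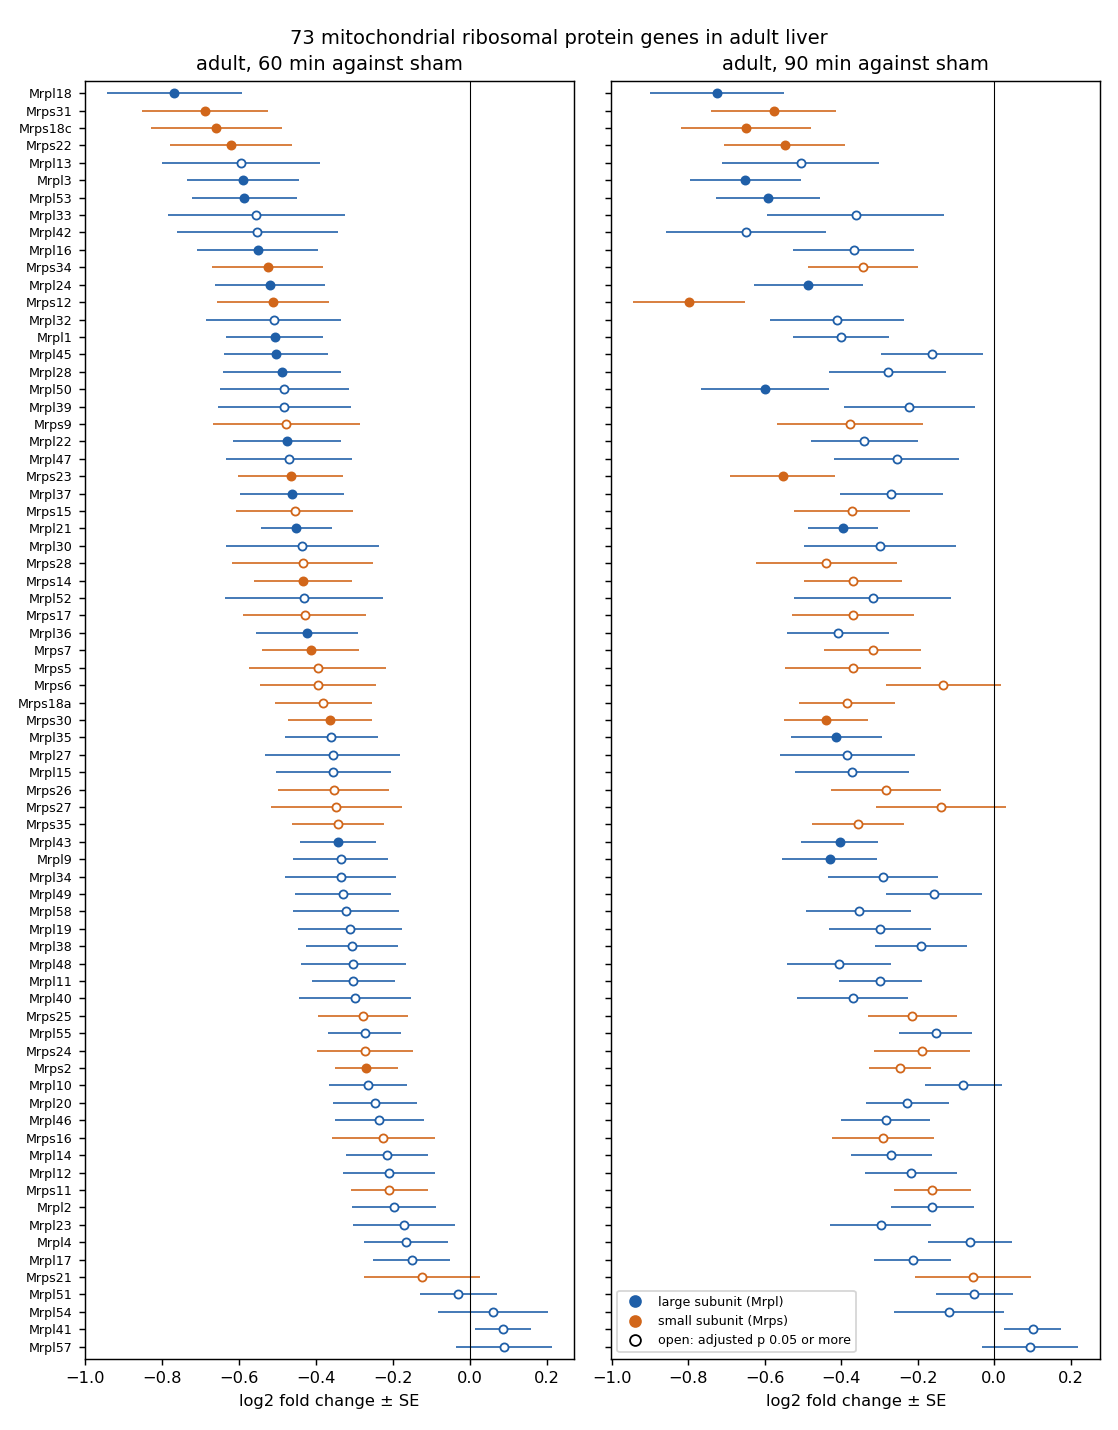
Log2 fold change with its SE (horizontal axis) of all 73 genes in adult liver, 60 min against sham on the left and 90 min against sham on the right, in the order of the change at 60 min. Blue is the large and orange the small subunit; filled points passed the adjusted threshold (23 at 60 min, 15 at 90 min). Most points lie below 0, with Mrpl41 and Mrpl57 above 0 at both times.

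Genes of both subunits fell, with the subunit taken from the symbol. Among all genes in adult liver, 9.76% fell at 60 min and 6.27% at 90 min. At 60 min in adult liver 13 of 48 large subunit genes fell (median -0.35) and 10 of 25 small subunit genes (median -0.40). At 90 min the counts were 9 of 48 (median -0.30) and 6 of 25 (median -0.37). The difference of the medians, large minus small, was 0.05 at 60 min and 0.07 at 90 min in adult liver. On single arrays it ran between -0.08 and 0.07, with the large subunit higher on 16 arrays and lower on 8. Leaving out 1 array at a time gave 0.01 to 0.07 at 60 min and -0.02 to 0.09 at 90 min, so 1 array could turn the direction at 90 min, which was -0.01 without sham replicate 1 and -0.02 without ischemia replicate 2. Over the 24 arrays the medians of both subunits had a Pearson correlation of 0.982, a description of arrays that share their sham scaling and their overall shift.

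The genes were also split by ancestry. Shares of all genes that fell in adult liver were again 9.76% at 60 min and 6.27% at 90 min. Of the large subunit, 9 of 30 genes with a bacterial counterpart fell at 60 min and 6 at 90 min, and 4 and 3 of the 18 without one. Of the small subunit, 5 of 15 with a counterpart fell at 60 min and 2 at 90 min, and 5 and 4 of the 10 without one. Those 10 include Mrps18a, also a relative of bacterial S18, because only Mrps18c was listed as the counterpart. The medians at 60 min were -0.36 and -0.33 in the large subunit and -0.41 and -0.37 in the small, with a counterpart and without. All 30 large and all 15 small subunit genes with a bacterial counterpart had fold changes below 0 in adult liver at both times. Of all genes, 58.7% were below 0 at 60 min and 56.5% at 90 min.

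Symbols do not always give the subunit. Mrps30 and Mrps18a carry small subunit names but sit in the large subunit of the mammalian ribosome; the counts by subunit and by ancestry include both as small subunit genes. Mrps30 read 0.803, 0.855 and 0.685 after 60 min, against 1.00, 0.993 and 1.00 after sham, and fell by 0.36 at 60 min and by 0.44 at 90 min (limma adjusted p = 0.0403 and 0.0268). Mrps18a had -0.38 at 60 min and -0.39 at 90 min, neither past the threshold (adjusted p = 0.0516 and 0.0620). Mrpl12, the counterpart of the bacterial stalk protein L7/L12, which in humans is also reported to bind the mitochondrial RNA polymerase, had -0.21 at 60 min (adjusted p = 0.224). Mrpl58, a peptidyl-tRNA hydrolase built into the large subunit that can release stalled chains, had -0.32 at 60 min (adjusted p = 0.110). Both of the Mrpl1 probe sets read below sham on every adult array at 60 and 90 min, and the probe set used for the gene fell by 0.51 at 60 min (limma adjusted p = 0.0304).

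In adult liver after 30 min no member passed, nor did any gene of the 14348 (0.0%, limma), with 2 members and 10.4% of all genes at an unadjusted p under 0.05. In 3 members all ischemia arrays lay below all sham arrays, against 6.29% of all genes. The fold changes of 62 members were below 0, against 57.0% of all genes, and the median was -0.12, against -0.03 for all genes. Ischemia replicate 3 had ratios at or above 1 for most members, and without it the median was -0.22. Without ischemia replicate 1 the median was -0.04, with 45 members below 0, and without sham replicate 2 it was -0.08. Mrps31, with 0.640, 0.704 and 1.04, had the lowest p at 30 min (-0.36, limma adjusted p = 0.462). Comparing 60 with 30 min directly, 72 of 73 members had lower values after 60 min, against 59.9% of all genes. Their median was -0.24, and 23 members (31.5%) had an unadjusted p under 0.05, against 8.78% of all genes. Without the 30 min replicate 3 that median was -0.15. None passed the adjusted threshold, nor did any gene (0.0%). Mrpl21 had the lowest p of that comparison, at -0.44 ± 0.09 (limma adjusted p = 0.540).

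In young liver no member passed at 30, 60 or 90 min, where 0.0488%, 0.0139% and 0.112% of all genes fell and 0.0558%, 0.0279% and 0.181% passed in either direction (limma). At an unadjusted p under 0.05 there were 5, 2 and 7 members, against 8.36%, 10.4% and 9.0% of all genes. All 3 ischemia arrays lay below all 3 sham arrays in 8, 5 and 6 members, against 9.49%, 7.77% and 9.49% of all genes. Fold changes below 0 numbered 69, 71 and 56 of 73, against 56.6%, 55.3% and 57.6% of all genes. The medians of the members were -0.16, -0.17 and -0.09. These medians depended on young sham replicate 3, on which most members were high: without it they were -0.05, -0.07 and 0.00. The value at 90 min also turned to 0.02 without young ischemia replicate 3. The genes with the lowest p were Mrps30 at 30 min (-0.32, adjusted p = 0.348), Mrpl9, the counterpart of bacterial L9, at 60 min (-0.34, adjusted p = 0.384), and Mrpl14, the counterpart of bacterial L14, at 90 min (-0.35, adjusted p = 0.211). Between 60 and 30 min in young liver 0 members and 5.16% of all genes had an unadjusted p under 0.05, and between 90 and 60 min 3 members and 9.33%, with none past the adjusted threshold in either (0.0% of all genes, limma).

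Whether the response differed between the ages was tested as the adult change minus the young change at each time. No member passed at 30, 60 or 90 min, nor did any of the 14348 genes (0.0%, limma), with 0, 5 and 5 members and 2.1%, 6.82% and 11.2% of all genes at an unadjusted p under 0.05. The median difference over the members was 0.02 at 30 min, -0.21 at 60 min and -0.23 at 90 min. Differences below 0 numbered 26, 66 and 67 of 73, against 50.7%, 59.4% and 53.6% of all genes. Under quantile normalization the medians at 60 and 90 min were -0.10 and -0.11. Leaving out 1 array at a time moved the medians between -0.07 and 0.12 at 30 min, so the sign there depended on single arrays, between -0.37 and -0.12 at 60 min, and between -0.34 and -0.13 at 90 min. Without young sham replicate 1 they were -0.12 and -0.13, and without young sham replicate 3 they were -0.37 and -0.33. Mrpl18 at 90 min had the largest difference, -0.85 ± 0.25 (limma adjusted p = 0.404): its 3 adult arrays lay between 0.535 and 0.668 and its 3 young arrays between 0.894 and 1.24. At 60 min Mrps31 had -0.55 (adjusted p = 0.704). The first parts of the codes in the array titles are different for adult and young mice, so age and whatever those codes stand for cannot be told apart.

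Genes that work with the mitochondrial ribosome were described by lists. The adult counts stand beside 9.76% of all genes that fell at 60 min and 6.27% at 90 min. Among 10 mitochondrial translation factors, 2 fell at both adult times: Guf1, a ribosome-binding GTPase, with -0.53 at 60 min and -0.40 at 90 min (limma adjusted p = 0.0266 and 0.0339), and Mrrf, which helps to recycle the ribosome, with -0.48 and -0.53 (adjusted p = 0.0266 and 0.0122). The median of the 10 was -0.31 at 60 min and -0.34 at 90 min. Of 15 mitochondrial aminoacyl-tRNA synthetases, which charge the transfer RNAs, 3 fell at 60 min, among them Hars2 (-0.48) and Iars2 (-0.42), and none passed at 90 min. At 90 min Iars2 had -0.44 and Lars2 -0.31 (adjusted p = 0.0520 and 0.073). The medians of the 15 were -0.21 at 60 min and -0.12 at 90 min.

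Of 25 genes for ribosome assembly and mitochondrial RNA, 5 fell at 60 min (20.0%, against 9.76% of all genes). At 90 min 4 fell (16.0%, against 6.27%), and the medians were -0.35 and -0.33. Mterf3, known in mice to bear on mitochondrial transcription, fell by 0.77 at 60 min and by 0.69 at 90 min (limma adjusted p = 0.0300 and 0.0354). Mterf1a, a transcription termination factor, fell by 0.49 at 60 min and by 0.44 at 90 min (adjusted p = 0.0305 and 0.0406). Lrpprc, which stabilises mitochondrial messenger RNAs, fell by 0.46 at 60 min (adjusted p = 0.0377). Ddx28, a helicase of large subunit assembly, fell by 0.42 at 90 min (adjusted p = 0.0321). Of 4 mitochondrial ribosomal proteins whose symbols are outside the rule, Aurkaip1, a small subunit protein, fell by 0.47 at 60 min (adjusted p = 0.0425), and Chchd1 had -0.52 at 60 min and -0.55 at 90 min (adjusted p = 0.0644 and 0.0707).

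Other large sets were set beside the members. Of 75 nuclear genes for subunits of the respiratory chain and ATP synthase, 16 fell and 1 rose at 60 min (21.3% fell, median -0.40), and 7 fell at 90 min (9.33%, median -0.34). Of 27 cytosolic ribosomal protein genes, 2 fell at 60 min and 1 at 90 min (7.41% and 3.7%), both shares below those of all genes, with medians of -0.38 and -0.30. At 60 min their array medians were -0.03, -0.36 and -0.65 and overlapped with sham at -0.06, 0.12 and -0.02, and 22.2% of these genes had all ischemia arrays below sham, against 25.9% of all genes. The median of the mitochondrial ribosomal protein genes on an array went with those of both sets over the 24 arrays, with Pearson correlations of 0.917 and 0.919, and with that of all genes (0.838). These are descriptions, since the points share arrays, normalization and sham scaling.

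**Figure D4:**
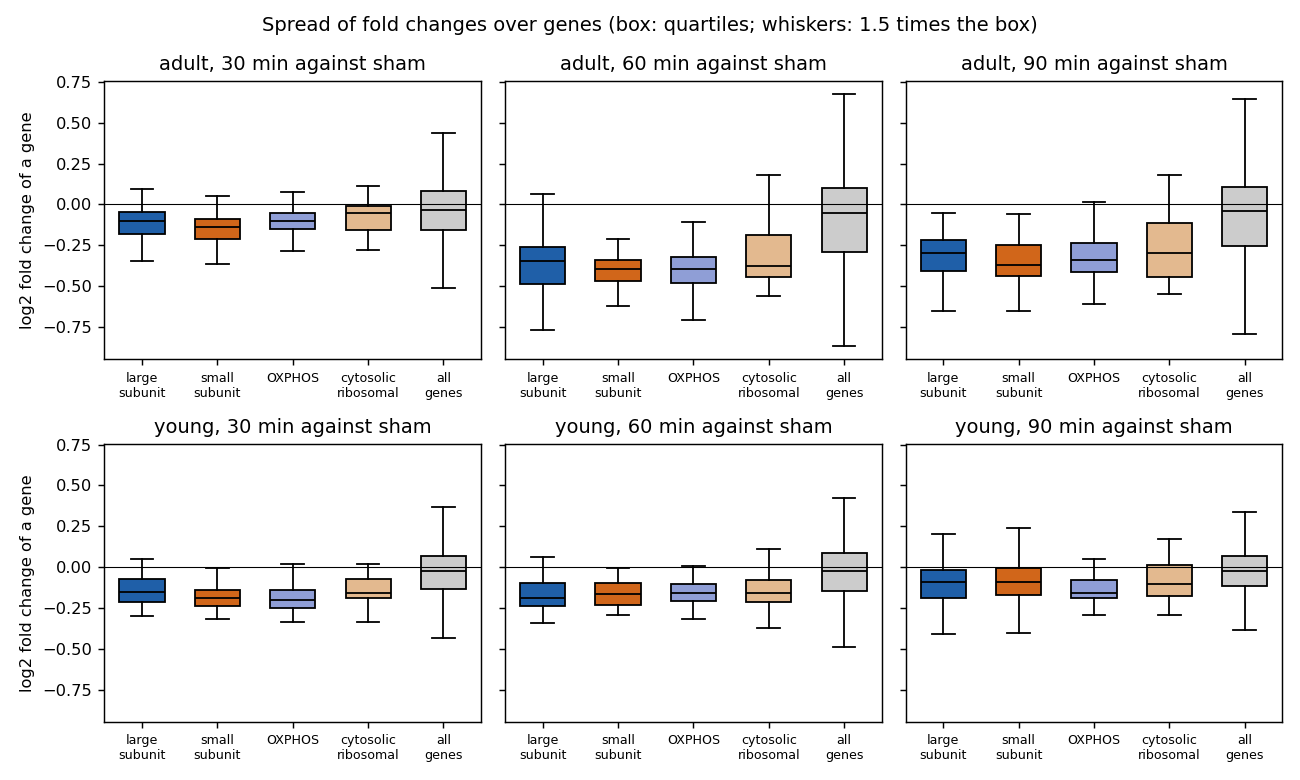
Log2 fold changes against sham (vertical axis) of the genes of each list, with adult mice above and young mice below, and 30, 60 and 90 min in columns. The line is the median, the box the quartiles, the whiskers reach at most 1.5 times the box, and values beyond them are not drawn. In adult liver at 60 and 90 min the medians of both subunits, the respiratory chain subunits (OXPHOS) and the cytosolic ribosomal proteins lie between -0.40 and -0.30, and that of all genes near 0.

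Other groups of genes shifted on the same arrays. Among all genes in adult liver, 9.76% fell and 2.15% rose at 60 min, and 6.27% fell and 1.17% rose at 90 min. The median of 38 genes for olfactory receptors, best known as odour sensors of the nose, was 0.11 at 60 min and 0.09 at 90 min in adult liver, with 3 that rose at 60 min. Their array medians lay between 0.04 and 0.17 after 60 min and between 0.05 and 0.11 after 90 min, against -0.02 to 0.02 after sham, and correlated with those of the members at -0.751 over the 24 arrays. All 8 hepatocyte markers measured had fold changes below 0 at 60 and 90 min, with medians of -0.30 and -0.19, 0 and 1 of them past the test. Their array medians lay between -0.50 and -0.06 after 60 min and between -0.43 and -0.08 after 90 min, against 0.00 to 0.02 after sham. Of 10 markers of Kupffer cells, the macrophages of the liver, 1 fell at 60 min and 9 at 90 min, with medians of -0.64 and -1.23. No marker of T and NK cells (8 measured) or neutrophils (4) passed at either time, with medians of 0.17 and 0.12 for T and NK cells and -0.43 and -0.59 for neutrophils. At 90 min 2 of 9 stellate and 1 of 8 sinusoidal endothelial markers fell, and the medians at 60 and 90 min were -0.20 and -0.33 for stellate and -0.22 and -0.37 for endothelial cells. The part of these shifts in the result was not tested.

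Promoters of several members are printed from RefSeq (GRCm38.p6) as a description, and a link between their motifs and the fall was not tested. Each runs 5′ to 3′ on the gene's strand and spans 250 bases before the transcription start and 50 after it. Capitals mark the motifs, searched on both strands and so printed in either orientation: CCGGAAG for the ETS family, which includes GABP, GCGCA and GCGC with any 1 base between them for NRF1, and AAGATGGC for YY1, factors known for nuclear genes of mitochondria. Mrpl18 (chr17:12916042-12916341, minus strand), Mrps12 (chr7:28741772-28742071, minus strand) and Mrpl53 (chr6:83108858-83109157, plus strand) fell at both times, and Mrpl41 (chr2:24975049-24975348, minus strand) and Mrpl57 (chr14:57825989-57826288, plus strand) did not pass at either.
Mrpl18: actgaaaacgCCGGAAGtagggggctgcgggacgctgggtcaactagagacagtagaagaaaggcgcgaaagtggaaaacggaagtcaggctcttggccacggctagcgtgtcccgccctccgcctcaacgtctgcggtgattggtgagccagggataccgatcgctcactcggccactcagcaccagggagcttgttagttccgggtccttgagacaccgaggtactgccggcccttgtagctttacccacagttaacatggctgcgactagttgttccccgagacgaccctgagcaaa
Mrps12: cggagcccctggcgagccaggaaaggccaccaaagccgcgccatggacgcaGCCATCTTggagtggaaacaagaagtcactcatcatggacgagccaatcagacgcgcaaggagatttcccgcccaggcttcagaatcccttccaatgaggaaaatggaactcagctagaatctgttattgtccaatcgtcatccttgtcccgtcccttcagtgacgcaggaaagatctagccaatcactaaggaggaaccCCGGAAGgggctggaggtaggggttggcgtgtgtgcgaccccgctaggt
Mrpl53: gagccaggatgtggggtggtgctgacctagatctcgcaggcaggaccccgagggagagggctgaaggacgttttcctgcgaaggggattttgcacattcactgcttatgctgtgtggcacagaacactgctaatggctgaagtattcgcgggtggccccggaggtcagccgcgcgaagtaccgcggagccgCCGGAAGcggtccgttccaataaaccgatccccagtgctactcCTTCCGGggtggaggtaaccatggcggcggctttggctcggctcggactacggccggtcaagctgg
Mrpl41: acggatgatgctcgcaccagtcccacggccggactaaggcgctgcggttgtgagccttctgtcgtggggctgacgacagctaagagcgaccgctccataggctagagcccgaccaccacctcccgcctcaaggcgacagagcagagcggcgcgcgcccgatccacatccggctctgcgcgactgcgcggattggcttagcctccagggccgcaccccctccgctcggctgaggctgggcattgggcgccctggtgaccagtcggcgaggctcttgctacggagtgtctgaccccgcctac
Mrpl57: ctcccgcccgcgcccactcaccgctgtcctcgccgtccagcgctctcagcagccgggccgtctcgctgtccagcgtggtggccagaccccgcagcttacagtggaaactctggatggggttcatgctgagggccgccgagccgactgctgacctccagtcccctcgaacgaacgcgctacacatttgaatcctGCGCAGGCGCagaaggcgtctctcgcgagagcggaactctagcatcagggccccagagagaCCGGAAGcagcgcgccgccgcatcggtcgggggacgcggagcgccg

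Mrpl18 and Mrpl53 hold the ETS motif, Mrps12 the ETS and YY1 motifs, Mrpl57 the ETS and NRF1 motifs, and these letters are not in the Mrpl41 window. The ETS match of Mrpl18 lies at -237, near the start of Tcp1, a gene on the other strand 238 bases away. The YY1 match of Mrps12 lies at -195, beyond the start of Sars2, 147 bases away on the other strand. Windows were matched for 64 of the 73 members (70 windows) and for 11386 of all 14348 genes (14468 windows). The ETS motif was in 34.3% of the members' windows, against 13.5% of all windows, the NRF1 motif in 17.1% against 7.59%, and the YY1 motif in 17.1% against 3.37%. At least 1 of the 3 was in 57.1%, against 21.9%, while TATAAA was in 7.14% against 9.49%. The median GC content was 59.0% in the members' windows and 58.7% in all. The centres of the ETS motif had a median position of -16 from the start, those of NRF1 -44 and those of YY1 19.

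The changes of members with and without a motif are given as a description, beside 9.76% of all genes that fell at 60 min and 6.27% at 90 min. In adult liver at 60 min, 10 of 24 genes with the ETS motif fell (median -0.37), and 12 of 40 without it (median -0.40). At 90 min 9 of the 24 fell (median -0.37), and 6 of the 40 (median -0.30). Of 12 genes with the NRF1 motif, 1 fell at each time (medians -0.34 and -0.25), and of 52 without it 21 fell at 60 min and 14 at 90 min (medians -0.40 and -0.36). Of 12 with the YY1 motif 4 fell at 60 min and 2 at 90 min, and of 52 without it 18 and 13. A match of letters is not a site.

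Many members start back to back with another gene. Of the 64 members with a matched start, 25 (39.1%) had a gene on the other strand starting within 1000 bases upstream. The share was 16.1% in all measured genes, 28.3% in the respiratory chain and ATP synthase genes and 9.52% in cytosolic ribosomal protein genes. Among 16 measured neighbours that are no members, 5 fell and none rose at 60 min in adult liver, where 9.76% of all genes fell. At 90 min 1 fell, close to the share of 6.27% in all genes. The medians of the neighbours were -0.15 and -0.08. Psma2, a proteasome subunit 205 bases from Mrpl32, fell by 0.76 at 60 min and by 0.74 at 90 min (limma adjusted p = 0.0294 and 0.0255), where Mrpl32 had -0.51 and -0.41 and did not pass. Tcp1, a chaperonin subunit 238 bases from Mrpl18, fell by 0.50 at 60 min (limma adjusted p = 0.0434). Sars2, the mitochondrial seryl-tRNA synthetase 147 bases from Mrps12, had 0.12 at 60 min and 0.08 at 90 min, and Ighmbp2, 32 bases from Mrpl21, had 0.08 and 0.06. Mrpl46 and Mrps11, a large and a small subunit gene 42 bases apart, had -0.23 and -0.21 at 60 min, neither past the test. These pairs were chosen for mention after their values were seen.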

How the data were processed

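Biotin-labelled cRNA of total liver RNA was hybridised to Affymetrix arrays, 24 in all. The deposited values are a ratio per probe set, made by the authors with RMA per the submitters' processing notes, with version and genome build not given in the sources used here; the mean of the 3 sham arrays of each age was 1 within 2e-07 in the deposited ratios. Detection calls and intensities were not used here, so signal over background could not be checked. Precision is limited by the number of arrays.

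Log2 of the ratios was fitted with limma 3.58.1 (R 4.3.3) as 8 group means over all 24 arrays, with Benjamini-Hochberg adjustment over 14348 genes and 16 residual degrees of freedom. RefSeq accessions gave 15225 of 26180 probe sets 1 symbol; 10955 had none, of which 10357 are predicted accessions. For 661 genes with several probe sets, the curated coding accession came first, then the lowest number. The design text names 12 young and 12 adult mice; nothing in the labels says more of how replicates were taken, so p-values measure the spread between these arrays. No arrays were identical (highest correlation 0.787).

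Named members are, for each comparison, up to 6 with the largest change each way past the threshold, or the 3 with the lowest p where fewer than 3 passed, and the S18 homologues, Mrps30, Mrpl12, Mrpl58 and Mrpl1, which has more than 1 probe set; from each related list up to 3 were named, or the 2 with the lowest p where none passed; other named members were chosen after their values were seen. Members and lists were chosen with earlier results of these data known. Over arrays that share the first part of a title code, deviations from the group means correlated between -0.383 and 0.423, with 12 of 29 pairs over 0.1. All 3 pairs were over 0.1 between adult 30 min and sham (0.23 to 0.368) and between young 90 and 60 min (0.14 to 0.423), and not between the groups of the other comparisons, so the code is a block only in an alternative fit. The fit was tested on simulated data. Alternatives were quantile normalization, median centring, every probe set, a robust fit, the title codes as block or covariate, the arrays of 1 age alone and each array left out. The values of 1 gene of a related list are not reported here.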

Additional observations from a re-analysis of the deposited data

Results flagged for a closer look

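In 2 genes every adult array after 90 min lay below the sham mean and every young array above it. The share of all genes with this pattern was not counted, so the 2 cannot be set against a background. Mrpl45 read 0.914, 0.892 and 0.870 in adult liver and 1.07, 1.31 and 1.02 in young liver after 90 min. The adult change minus the young change was -0.3639 (log2), and the test of that difference did not pass (limma adjusted p = 0.4725). Mrps27, a small subunit protein, read 0.9997, 0.868 and 0.849 in adult liver and 1.21, 1.17 and 1.05 in young liver after 90 min. The first of these adult arrays was barely below the sham mean. Its difference was -0.3778 (adjusted p = 0.5174). In both genes the young sham arrays were widely spread, between 0.838 and 1.29 for Mrpl45 and between 0.798 and 1.37 for Mrps27.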

How the results depend on the processing

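The count of members that fell at 60 min in adult liver, 23, was 0 after quantile normalization, 15 with arrays centred on their median, 11 in a fit of adult arrays alone and 49 with the number in the title code as a covariate. It ran between 0 and 25 with 1 array left out. The count at 90 min, 15, was 0 after quantile normalization, 1 in the fit of adult arrays alone and 41 with the covariate, and ran between 0 and 7 with 1 array left out. Among all genes, 1401 fell at 60 min as deposited, 0 after quantile normalization, 847 with arrays centred on their median and 2624 with the covariate. At 90 min 900 of all genes fell as deposited, 3 after quantile normalization and 2018 with the covariate. Counts of all genes are not given here for the fit of adult arrays alone or with 1 array left out. The cause of these changes was not tested. The fit of adult arrays alone and the fits with 1 array left out also hold fewer arrays. The number in the title code is constant within adult sham (5), 30 min (3) and 60 min (4), and is 2, 2 and 6 at 90 min. Among adult arrays it therefore varies within a group at 90 min alone and is otherwise confounded with the groups. With the first part of the code as a replicate block the counts were 25 and 18, where 1419 and 1156 of all genes fell. The large minus small median at 30 min in young liver, 0.0376, was 0.04997 after quantile normalization and 0.0605 with the block, and at 90 min in adult liver, 0.0706, it was 0.0180 with the covariate. With 1 array left out these differences ran between 0.0235 and 0.0471 at 30 min and between -0.0364 and 0.00670 at 60 min in young liver, and between 0.00774 and 0.0685 at 60 min and between -0.0165 and 0.0937 at 90 min in adult liver. The difference of Mrpl45 between 60 and 30 min in young liver turned to 0.03997 with the block. The block changed no other count of members past the threshold. In both comparisons whose code pairs all correlated, adult 30 min with sham and young 90 with 60 min, it left the count at 0.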
